A study of Mus musculus with 24 samples.

Results

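The muscle-specific microRNAs (myomiRs) are the small set of miRNAs that skeletal or cardiac muscle makes in far larger amounts than other tissues. In the counts of small RNA from mouse gastrocnemius, a calf muscle of mixed fibre types, they were taken by name: mir-1a, mir-1b, mir-133a, mir-133b, mir-133c, mir-206, mir-208b, mir-486a, mir-486b and mir-499. These 10 names gave 12 of the 1227 entries in the table, because mir-1a and mir-133a each had 2 entries (copies). Of the 12 entries, 10 passed the filter on low counts, as did 299 of all 1227. The other 2 were nearly absent, with 9 counts for mir-133c and 2 counts for mir-1b over all 12 libraries.

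Male C57BL6 mice of 2 ages were compared, 24 h after a scald burn or sham handling. The young arrived at 4 weeks of age and the adult at 10 weeks, and both were then acclimated. The young burn and adult burn groups had burns over 25% of the body surface. The young sham and adult sham groups had the same anaesthesia and analgesia with no burn and no fluid resuscitation. Each of the 4 groups held 3 mice, and each mouse gave 1 miRNA library and 1 poly-A mRNA library. The model is limited to 1 sex and 1 time point, and whole muscle was used, so a change in the mix of cells or fibres and a change in RNA per cell cannot be told apart.

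MyomiRs act as brakes on messenger RNAs that pair with their seed, bases 2 to 8 of the mature strand. The mir-1 and mir-133 families (the first with mir-206) lie in pairs at shared loci under the control of SRF, MEF2 and the myogenic factors. They are best known for guiding myoblast differentiation and proliferation. The miRNAs mir-208b and mir-499 lie inside slow myosin heavy chain genes and favour the slow fibre program, whereas mir-206 is known for its role in regenerating muscle and at the neuromuscular junction. The miRNA mir-486 lies in the ankyrin gene Ank1 and is shared with red blood cells.

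The 4 mature strands that carry the main contrasts among the members are shown here from RefSeq (GRCm38.p6), with the seed in capitals. They show the pair within 1 long noncoding RNA gene that moved in opposite directions with age, and the pair from myosin genes that shares most of a seed.
mmu-miR-206-3p: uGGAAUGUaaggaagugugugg
mmu-miR-133b-3p: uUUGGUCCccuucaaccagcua
mmu-miR-499-5p: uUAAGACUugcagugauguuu
mmu-miR-208b-3p: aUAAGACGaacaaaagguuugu
The seeds of miR-499-5p and miR-208b-3p were identical at 6 of 7 positions, and differed at the last one. The seeds of miR-206-3p and miR-133b-3p matched at 1 of 7 positions.

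On GRCm38 (GENCODE M21), Mir206 lies at chr1:20679010-20679082 and Mir133b at chr1:20682769-20682887, both on the plus strand and 3686 bases apart, within the long noncoding RNA gene Gm28653 (chr1:20669882-20684298), named Lincmd1 in RefSeq. Mir499 lies at chr2:155622880-155622958 inside Myh7b (chr2:155611212-155634307). Mir208b lies at chr14:54975700-54975776 on the minus strand inside Myh7 (chr14:54970684-54994626). The hairpins of mir-486a (Mir486, chr8:23142555-23142682, plus strand) and mir-486b (Mir3107, chr8:23142573-23142662, minus strand) overlap each other inside Ank1, so their entries are not independent. One mir-1a hairpin, Mir1a-1 (chr2:180389048-180389124), is followed on the same strand by Mir133a-2 (chr2:180398379-180398482).

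The miRNA libraries held between 1704531 and 3149396 counts. Each correlated with the other libraries of its group at a mean r of at least 0.989 on the log2 scale, and none stood apart. Among the mRNA libraries, with 4392605 to 5688512 counts, young burn replicate 2 had the lowest mean r with its group, 0.941. Listed host, regulator and target genes that passed only without it in an age comparison are therefore named as well. Other single-gene values are from all 12 libraries unless stated. The defining muscle genes Acta1, Ckm and Tnnt3 passed the count filter in the mRNA libraries, with Acta1, the skeletal actin, at 23080 to 38594 CPM. The edgeR p-values rest on the spread between mice within groups of 3.

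MyomiRs made up most of the small RNA that was counted. Their summed share of all counts was 65.6%, 69.8% and 66.6% in the adult sham mice and 60.6%, 60.7% and 64.2% in the adult burn mice. It was 59.3%, 58.4% and 62.0% in the young sham mice and 59.0%, 61.0% and 57.6% in the young burn mice. All 3 adult sham libraries lay above the other 9. The group means were 67.4% ± 2.21 (SD, n = 3) for adult sham, 61.8% ± 2.04 for adult burn, 59.9% ± 1.86 for young sham and 59.2% ± 1.71 for young burn. Counting error was small beside these SDs, since the widest 95% Wilson interval of a library's share spanned 0.146 percentage points. Such intervals cover counting error only, and no test was made on this sum. The study's RNA quality report gave no integrity number for any sample. Its highest ratios of large to small ribosomal RNA were those of adult sham replicates 1 and 3. The part of RNA quality in these shares was not tested.

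**Figure D1:**
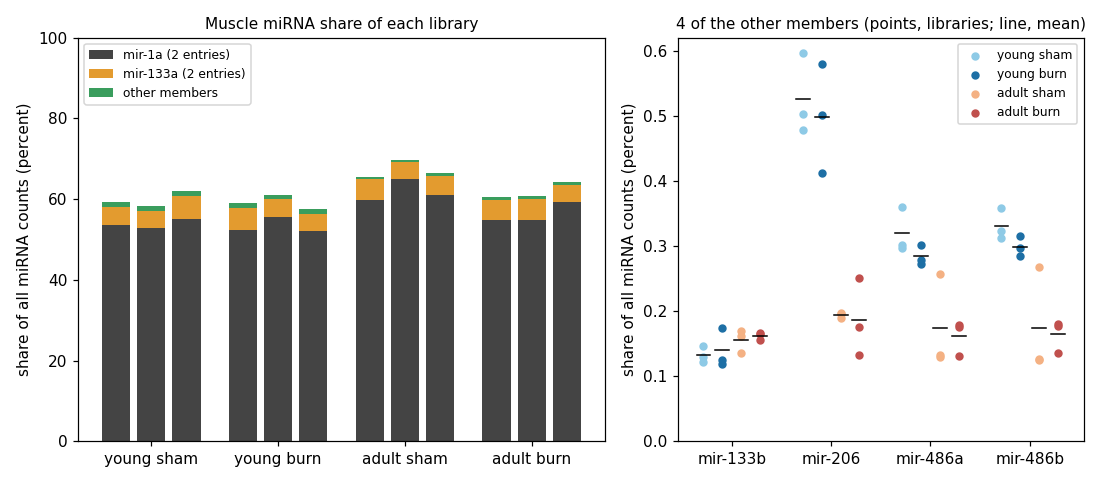
Left, the share of all miRNA counts (percent) taken by mir-1a, mir-133a and the other members in each of the 12 libraries, 3 bars a group. Right, the share of 4 other members by group, with 1 point a library and the mean as a line. The 3 adult sham bars are the tallest, at 65.6% to 69.8%, and the young mir-206 points lie above the adult ones.

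Most of this was mir-1a. Its 2 copies together took 62.0% ± 2.69 of counts in adult sham, 56.3% ± 2.55 in adult burn, 53.8% ± 1.10 in young sham and 53.4% ± 1.98 in young burn mice (SD, n = 3). The next member, mir-133a, took between 4.23% and 5.65% in every library, with group means from 4.64% to 4.84%. All other members together took 0.713% ± 0.166 in adult sham and 0.688% ± 0.109 in adult burn mice, against 1.32% ± 0.0288 in young sham and 1.23% ± 0.115 in young burn mice. Thus the minor members as a sum held a larger share of young than of adult libraries, while mir-1a held a smaller one. In sham mice the mean share was higher in the young for mir-206, mir-486a and mir-486b. It was lower in the young for mir-133b (0.133% against 0.156%), mir-499 (0.00877% against 0.0144%) and mir-208b.

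When mir-1a was taken out of the total, the other members held 13.8% to 14.4% of the remaining counts in adult sham, 12.1% to 13.0% in adult burn, 11.7% to 15.5% in young sham and 11.7% to 13.8% in young burn mice. On that base the ranges of young and adult sham mice overlapped.

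The 2 copies of each duplicated name behaved as 1 measurement. The first mir-1a entry took between 50.0% and 50.1% of the reads given to both, and the first mir-133a entry between 49.5% and 50.0%. The sources used here do not say how reads that match several places were shared out. Levels and shares of copies are therefore given as sums below. Tests and counts of entries are given per copy, so they count 1 signal 2 times. The mir-486a entry took between 48.4% and 51.5% of the reads given to mir-486a and mir-486b.

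Because mir-1a took at least 52.0% of every library, the choice of scaling bears on every other value. The trimmed mean of M-values (TMM) sets the bulk of entries as equal between libraries, whereas library-size scaling divides by all counts, mir-1a included. The TMM factors were 0.735 to 0.851 in adult sham, 0.841 to 0.975 in adult burn, 1.14 to 1.16 in young sham and 1.05 to 1.31 in young burn mice. For young sham against adult sham, the median log2 fold change of all 299 entries was 0.02 with TMM and 0.52 with library size. For young burn against adult burn it was -0.04 and 0.30. Levels are given below as TMM-normalized CPM, counts scaled to the TMM-adjusted library size, so that mir-1a values are not shares.

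**Figure D2:**
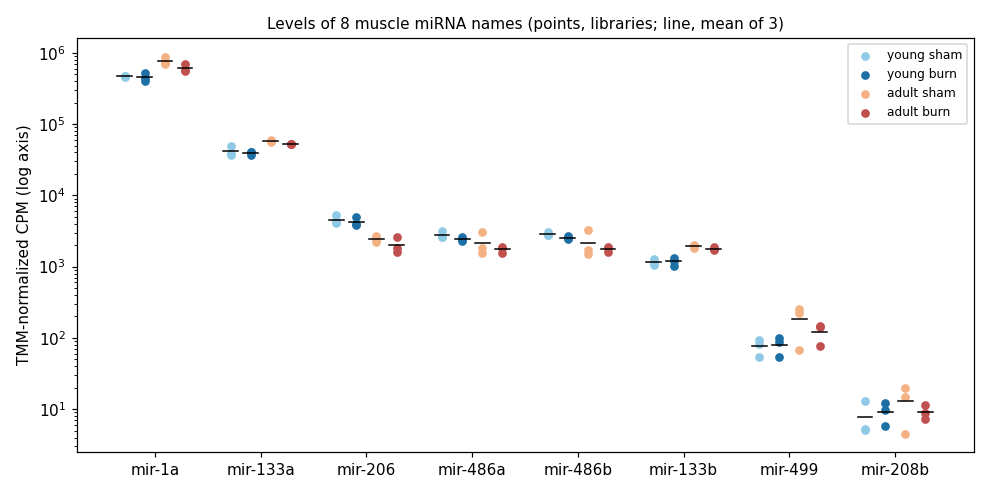
TMM-normalized CPM (log axis) of 8 member names, copies summed, with 1 point a library coloured by group and the mean of 3 as a line. The levels of mir-208b are the lowest and those of mir-1a the highest, and the young and adult points of mir-206 and mir-133b separate in opposite directions.

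The first question was how age bears on uninjured muscle. In young sham against adult sham mice, 7 of the 10 tested entries passed the test with TMM (edgeR quasi-likelihood test, Benjamini-Hochberg adjusted over all 299 entries, adjusted p under 0.05). Of all entries, 56.2% passed, so a share of this size was common in the table. With the copies of mir-1a and of mir-133a summed, 5 member names passed. By direction, 1 member entry was higher (30.8% of all entries) and 6 were lower (25.4% of all entries). The median log2 fold change of the 10 entries was -0.59. With library-size scaling, 3 member entries were higher (53.2% of all entries) and 2 were lower (6.69% of all entries). Under that scaling the members' median was -0.07 against 0.52 for all entries, so their median again lay lower. The 3 entries called higher, mir-206, mir-486a and mir-486b, lay above 0.52, at 1.44, 0.88 and 0.93.

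The member that rose in young mice was mir-206. It measured 5221, 4371 and 4141 CPM in the young sham mice and 2221, 2692 and 2351 CPM in the adult sham mice. All young values lay above all adult ones. Its level was 1.89-fold higher in young sham mice (log2 fold change 0.92 ± 0.17 SE, edgeR adjusted p = 0.000132). Library-size scaling gave a log2 fold change of 1.44 ± 0.18 (edgeR adjusted p = 1.02e-06), and scaling by the counts outside the members gave 1.14 ± 0.16 (edgeR adjusted p = 1.00e-05).

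Its neighbour mir-133b, which lies in the same long noncoding RNA gene, went the other way. It measured 1129, 1275 and 1060 CPM in young sham mice and 1985, 1849 and 1946 CPM in adult sham mice. These levels did not overlap between the groups, while the shares of all counts did. The log2 fold change was -0.74 ± 0.12 (edgeR adjusted p = 3.26e-05). With library-size scaling it kept its sign but did not pass the test, at -0.23 ± 0.15 (edgeR adjusted p = 0.194), while the median entry moved up by 0.52.

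The most abundant member, mir-1a, which promotes muscle differentiation, measured 468225, 459411 and 475710 CPM in young sham mice and 703170, 883757 and 732247 CPM in adult sham mice. The young values lay close together and below all adult ones. Its copies were lower by log2 fold changes of -0.72 ± 0.13 and -0.73 ± 0.13 (edgeR adjusted p = 0.00011 and 0.000108). Library-size scaling left -0.20 ± 0.07 for both copies (edgeR adjusted p = 0.0128 and 0.0125).

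For mir-133a, which shares its seed family with mir-133b and is known to restrain SRF, the direction itself rested on the scaling. Its summed level was 39138, 36788 and 48800 CPM in young sham mice and 60241, 57555 and 56547 CPM in adult sham mice. With TMM both copies were lower, at -0.48 ± 0.11 (edgeR adjusted p = 0.00139 and 0.00127). With library-size scaling both copies turned to 0.03 ± 0.12 (edgeR adjusted p = 0.864 and 0.87), and its shares of counts overlapped, at 4.79% ± 0.755 in young sham and 4.69% ± 0.449 in adult sham mice.

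The slow-fibre miRNA mir-499 measured 53.6, 92.8 and 82.1 CPM in young sham mice and 68.6, 255 and 225 CPM in adult sham mice. Adult sham replicate 1 lay inside the young range, and the other 2 adult mice lay above it. The log2 fold change was -1.26 ± 0.37 (edgeR adjusted p = 0.00727). It did not pass with library-size scaling (-0.72 ± 0.36, edgeR adjusted p = 0.0932), without adult sham replicate 2 (-0.96, edgeR adjusted p = 0.0637) or without young sham replicate 1 (-1.06, edgeR adjusted p = 0.052).

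Its partner mir-208b was the least abundant member tested, with 10 to 51 counts a library. It measured 5.27, 13.0 and 5.07 CPM in young sham and 4.54, 14.6 and 19.7 CPM in adult sham mice, and these ranges overlapped. The log2 fold change of -0.69 ± 0.47 did not pass the test (edgeR adjusted p = 0.223). Without adult sham replicate 1, the lowest of its group, it was -1.11 and passed (edgeR adjusted p = 0.0456).

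The 2 entries of mir-486, a miRNA of muscle and red blood cells, were not called between the sham groups with TMM. For mir-486a the values were 2603, 2627 and 3110 CPM in young sham mice and 1529, 1816 and 3092 CPM in adult sham mice. Adult sham replicate 3 lay within the young range, and the other 2 lay below it. The log2 fold changes were 0.37 ± 0.19 for mir-486a and 0.43 ± 0.20 for mir-486b (edgeR adjusted p = 0.0943 and 0.0757). Without adult sham replicate 3 they were 0.72 and 0.84 (edgeR adjusted p = 0.000147 and 1.86e-05), and with library-size scaling 0.88 ± 0.20 and 0.93 ± 0.21 (edgeR adjusted p = 0.000936 and 0.00094).

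Since mir-486 and red blood cells go together, red cell markers are given beside it. The sum of mir-451a and mir-144, miRNAs of red blood cells, was 241 to 379 CPM in young sham and 242 to 355 CPM in adult sham mice. Neither passed the test with TMM in an age comparison. With library-size scaling mir-451a was higher in young mice in both (0.56 in sham, edgeR adjusted p = 0.0395, and 0.64 after burn, edgeR adjusted p = 0.0254). With that scaling mir-144 passed in neither (0.29 in sham, edgeR adjusted p = 0.336, and -0.08 after burn, edgeR adjusted p = 0.842). Of 5 red cell mRNAs, 0 passed in young sham against adult sham mice, 0 at an unadjusted p under 0.05 and 0 by DESeq2.

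Markers of other cells also moved between ages in part. The leukocyte miRNAs mir-142a, mir-223 and mir-150 summed to 222 to 278 CPM in young sham and 257 to 326 CPM in adult sham mice, and they did not move together. With TMM mir-150 was lower (-0.48 ± 0.14, edgeR adjusted p = 0.00805), mir-223 was at 0.59 ± 0.25 (edgeR adjusted p = 0.051) and mir-142a at -0.01 ± 0.18 (edgeR adjusted p = 0.982). With library size mir-223 and mir-142a were higher (1.10 and 0.51, edgeR adjusted p = 0.00142 and 0.0316) and mir-150 was at 0.04. The endothelial mir-126a was at -0.07 ± 0.11 (edgeR adjusted p = 0.607), with 21961 to 23107 CPM in young sham and 23266 to 24125 CPM in adult sham mice. The smooth muscle and fibroblast miRNAs mir-143 and mir-145a summed to 34162 to 51296 CPM against 50800 to 55501 CPM, and both were lower in young sham mice with TMM (-0.37 ± 0.15 and -0.74 ± 0.12, edgeR adjusted p = 0.0404 and 5.86e-05), while mir-143 turned to 0.15 with library size. The part of these cells in the myomiR differences was not tested.

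The age comparison within burned mice used other animals. In young burn against adult burn mice, 8 of 10 member entries passed with TMM, where 55.2% of all entries did. With copies summed, 6 member names passed. Higher in young burn mice were 3 entries (29.8% of all entries) and lower were 5 (25.4% of all entries). With library-size scaling 3 entries were higher (37.8% of all entries) and 0 were lower (9.36% of all entries were), although 4 of the members' log2 fold changes that had passed with TMM as lower lay at -0.08 to -0.06 and the other at -0.22.

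Among them mir-206 again stood highest. It measured 3833, 3919 and 5000 CPM in the young burn mice and 2620, 1799 and 1579 CPM in the adult burn mice, with no overlap. The difference was 2.13-fold (log2 fold change 1.09 ± 0.17, edgeR adjusted p = 2.23e-05). With library-size scaling it was 1.42 ± 0.18 (edgeR adjusted p = 1.22e-06).

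The lower members were those of the sham comparison save mir-499. For mir-133b, 1332, 1190 and 1030 CPM in young burn mice stood against 1740, 1695 and 1859 CPM in adult burn mice, a log2 fold change of -0.57 ± 0.12 (edgeR adjusted p = 0.000429). For mir-133a, 40206, 40968 and 37344 CPM stood against 52325, 52789 and 52029 CPM, and its copies were at -0.40 ± 0.11 and -0.41 ± 0.11 (edgeR adjusted p = 0.0061 and 0.00487). For mir-1a, 400198, 528758 and 447467 CPM stood against 571894, 562802 and 704049 CPM, and both copies were at -0.42 ± 0.13 (edgeR adjusted p = 0.0106 and 0.0103). In all 3 the young burn TMM levels lay below the adult burn levels, while the shares of all counts overlapped. The mir-1a call was lost without adult burn replicate 3 (-0.29 for both copies, edgeR adjusted p = 0.0595 and 0.0591) and without young burn replicate 1 (-0.31 for both copies, edgeR adjusted p = 0.0712 and 0.0697).

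The mir-486 entries passed the test in this comparison. For mir-486a the values were 2308, 2588 and 2404 CPM in young burn mice and 1865, 1805 and 1567 CPM in adult burn mice, without overlap. The log2 fold changes were 0.48 ± 0.19 for mir-486a and 0.53 ± 0.20 for mir-486b (edgeR adjusted p = 0.038 and 0.0323). The red cell miRNAs summed to 253 to 349 CPM in young burn and 244 to 267 CPM in adult burn mice. With TMM mir-451a was at 0.28 and mir-144 at -0.43, and neither passed (edgeR adjusted p = 0.236 and 0.107). The mir-486 calls were near the threshold, and leaving out any 1 of the 6 libraries compared took at least 1 of the 2 entries past it, to an adjusted p between 0.0503 and 0.108 (edgeR).

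For mir-499, 98.3, 54.0 and 88.0 CPM in young burn mice stood against 76.6, 149 and 141 CPM in adult burn mice, and the log2 fold change of -0.61 ± 0.36 did not pass (edgeR adjusted p = 0.167). For mir-208b, 12.03, 5.73 and 9.69 CPM stood against 7.34, 8.78 and 11.6 CPM, at -0.02 ± 0.47 (edgeR adjusted p = 0.98). The groups overlapped for both. The interaction test below gives no call that these differ from the sham values.

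**Figure D3:**
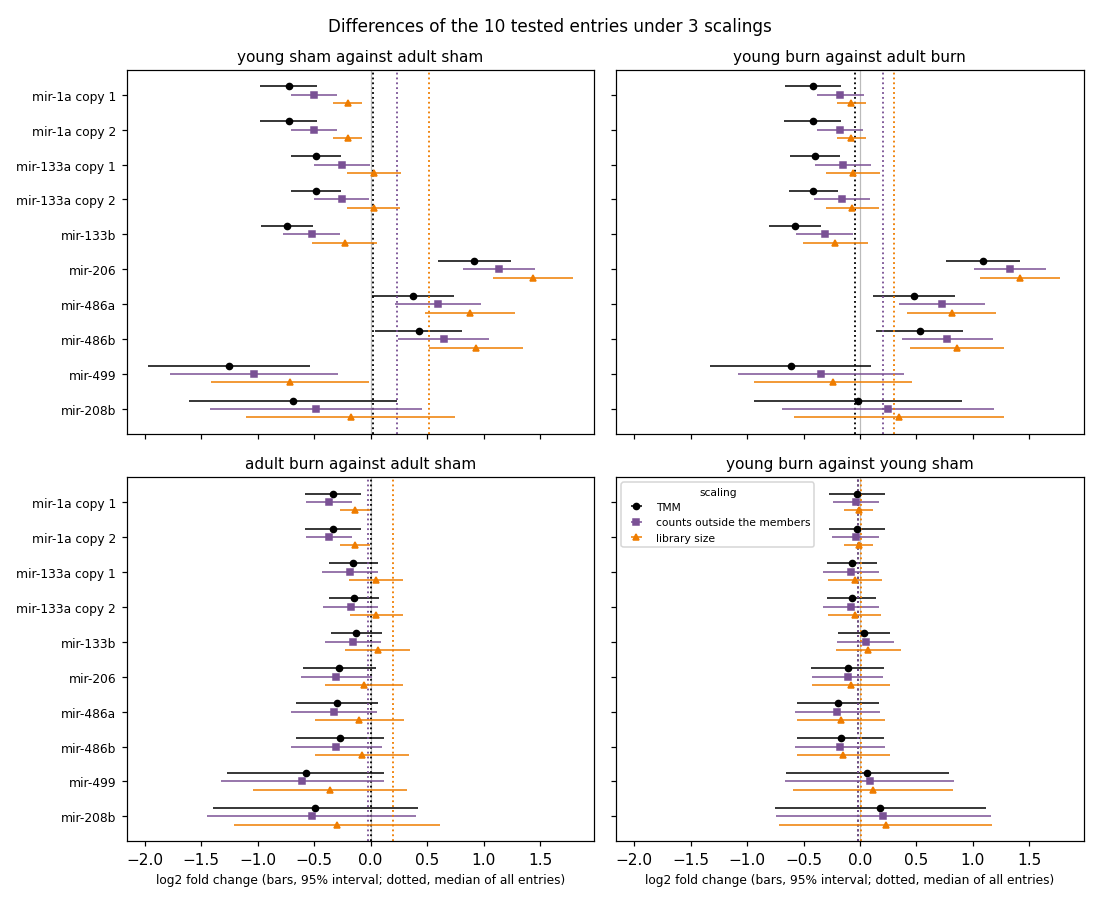
Log2 fold change (horizontal axis) of each of the 10 tested entries in 4 comparisons, under 3 scalings, with 95% intervals as bars and the median of all entries under each scaling as a dotted line of the same colour. In the 2 age comparisons (top) mir-206 lies to the right of every dotted line, and the mir-1a, mir-133a and mir-133b entries lie to the left of the line of their own colour. In the 2 burn comparisons (bottom) no entry passed the test.

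Ratios of counts within a library do not depend on any scaling. The ratio of mir-206 to mir-133b counts, both within Gm28653, was 4.63, 3.43 and 3.91 in young sham mice and 1.12, 1.46 and 1.21 in adult sham mice. It was 2.88, 3.29 and 4.85 in young burn mice and 1.51, 1.06 and 0.849 in adult burn mice. Every young library lay above every adult one. The ratio was 3.20-fold higher in young mice, averaged over sham and burn.

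The ratio of mir-206 to mir-1a, which share a seed family, ran from 0.00741 to 0.0112 in the 6 young libraries and from 0.00224 to 0.00458 in the 6 adult libraries. It was 3.00-fold higher in young mice. The ratio of mir-133a to mir-1a ran from 0.0775 to 0.103 in young and from 0.0651 to 0.0938 in adult libraries, and these ranges overlapped. The 3 ratios were chosen after the values were seen, so they are descriptions with no test.

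**Figure D4:**
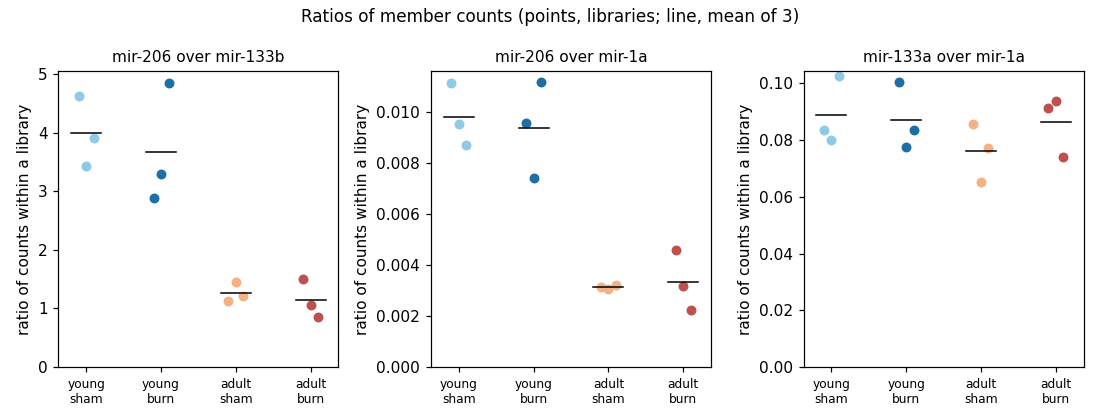
Ratios of the counts of 2 members within each library (vertical axes start at 0), with 1 point a library and the mean of 3 as a line. The ratio of mir-206 to mir-133b lies between 2.88 and 4.85 in young and between 0.849 and 1.51 in adult libraries, and the ratio of mir-133a to mir-1a overlaps between ages.

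The second question was how the burn bears on muscle 24 h later, remote from the wound. No member passed the test for burn at either age. Both burn comparisons share their samples with the age comparisons. In adult burn against adult sham mice, edgeR called 0 of 10 member entries and 0% of all entries, with 2 member entries (both mir-1a) and 23 of all entries at an unadjusted p under 0.05. By DESeq2, 0 members and 1 of all entries passed. In young burn against young sham mice, edgeR again called 0 of 10 and 0% of all entries, with 0 members and 37 of all entries at an unadjusted p under 0.05. By DESeq2, 0 members and 0 of all entries passed.

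In adult mice all 10 entries leaned lower after burn with TMM, from -0.58 for mir-499 to -0.13 for mir-133b, around a median of all entries of 0.00. With library-size scaling the range was -0.36 to 0.06 around a median of 0.20, and mir-133a and mir-133b took the opposite sign. For mir-1a the copies were at -0.33 ± 0.13 (edgeR adjusted p = 0.544), with a 95% interval of -0.59 to -0.08 that takes no account of the number of tests. The share of mir-1a lay at 59.9%, 65.0% and 61.0% in adult sham mice against 54.8%, 54.9% and 59.2% in adult burn mice, without overlap, while its TMM levels overlapped. In young mice the entries lay between -0.19 and 0.18. There the interval of mir-206 reached from -0.43 to 0.22 and that of mir-1a from -0.28 to 0.22. For mir-208b, with few counts, the interval was far wider, from -0.75 to 1.11.

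Averaged over both ages, the burn effect was called by edgeR for 0 of 10 member entries and 0% of all entries, with 0 members and 26 of all entries at an unadjusted p under 0.05 and 0 of either by DESeq2. The interaction of burn with age gave 0 of 10 and 0% in edgeR, with 0 members and 36 of all entries at an unadjusted p under 0.05, and 0 members and 2 of all entries by DESeq2. The largest interaction terms among the members were 0.67 ± 0.66 for mir-208b and 0.64 ± 0.51 for mir-499, and the terms of the mir-1a copies were 0.31 ± 0.18 (edgeR adjusted p = 0.572).

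Across the 12 libraries, the entries whose log2 CPM went most closely with each member were mostly not other members. For mir-206 they were mir-665 (Pearson r = 0.976) and mir-376b (r = 0.948), and for mir-133b they were mir-29a (r = 0.953) and mir-30a (r = 0.95). For mir-1a they were mir-30d (r = 0.924) and mir-30a (r = 0.918), and for mir-133a mir-1943 (r = 0.95) and mir-504 (r = 0.919). The mir-486 entries went with each other (r = 0.993) and then with mir-299b (r = 0.82 and 0.829). The pair mir-499 and mir-208b were each other's closest (r = 0.818), followed by mir-151 for mir-499 (r = 0.747) and mir-700 for mir-208b (r = 0.604). All of these points share the age difference and the TMM factors, so they are descriptions.

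The host genes were read in the mRNA libraries of the same mice. Of 4 listed hosts (Myh7b, Myh7, Ank1 and Mib1), 1 was lower in young sham against adult sham mice with all 12 libraries, where 3.76% of all genes passed. That gene was Mib1, a ubiquitin ligase of Notch ligands listed for a mir-1a and mir-133a pair at its locus. The strand of that pair was not examined here, so Mib1 mRNA is not read as its primary transcript. Mib1 stood at 54.0 ± 5.82 CPM in young sham and 104 ± 25.8 CPM in adult sham mice (log2 fold change -0.94 ± 0.16, edgeR adjusted p = 0.008). Mib1 was again lower in young burn against adult burn mice, where 10.8% of all genes passed (54.2 ± 2.33 against 83.6 ± 6.10 CPM, -0.62 ± 0.16, edgeR adjusted p = 0.0253). Without young burn replicate 2 it was also lower in both comparisons, at -0.95 and -0.62 (edgeR adjusted p = 0.00139 and 0.0184), where 11.8% and 20.7% of all genes passed. The call between the burn groups was lost with library-size scaling (-0.52, edgeR adjusted p = 0.0833) and without each of adult burn replicates 1, 2 and 3 and young burn replicates 1 and 3 (edgeR adjusted p = 0.0586 to 0.08). The sham call was lost without young sham replicate 3 (-0.86, edgeR adjusted p = 0.0552). The sources used here do not say whether the counting used strand, so reads of overlapping genes cannot be told apart.

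Neither myosin host passed between ages, with all 12 libraries or without young burn replicate 2. Myh7, the slow myosin heavy chain and host of mir-208b, was at 38.4, 58.5 and 35.2 CPM in young sham and 17.9, 85.6 and 114 CPM in adult sham mice (-0.71 ± 0.54, edgeR adjusted p = 0.493). Myh7b, host of mir-499, was at 1.70, 4.84 and 3.89 CPM in young sham and 1.85, 5.87 and 4.86 CPM in adult sham mice (-0.24 ± 0.55, edgeR adjusted p = 0.853). Adult sham replicate 1 was the lowest of its group in both genes, as it was in mir-208b (4.54 CPM) and mir-499 (68.6 CPM).

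Mouse by mouse, mir-208b and its host rose and fell together. Over 12 mice Pearson's r of log2(CPM + 1) was 0.815 (permutation p = 0.00102, adjusted over 5 relations 0.0051) and Spearman's rho 0.762 (permutation p = 0.00584, adjusted 0.0292). Without the 2 mice farthest from the median of mir-208b, adult sham replicates 1 and 3, r was 0.672. After each group's mean was taken off, r was 0.888 (exact permutation within groups, p = 0.00694, adjusted 0.0347). The pooled r was 0.831 without young burn replicate 2. The part of slow-fibre content in this relation was not tested.

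For mir-499 and Myh7b the relation was looser, with r = 0.469 (permutation p = 0.119, adjusted 0.297) and rho = 0.587 (permutation p = 0.0494, adjusted 0.0867). Without the 2 farthest mice, adult sham replicates 2 and 3, r was 0.0422, so it rested on them. Within groups r was 0.671 (exact permutation p = 0.0417, adjusted 0.104). Myh7b had 3 to 26 counts a library, which limits its precision.

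**Figure D5:**
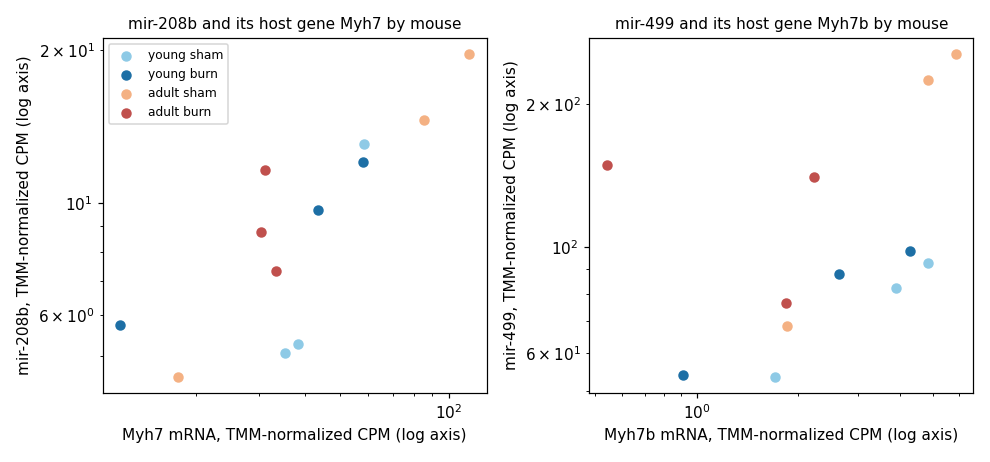
TMM-normalized CPM of mir-208b against its host Myh7 (left) and of mir-499 against its host Myh7b (right), both axes logarithmic, with 1 point a mouse coloured by group. On the left, the mice with least Myh7, adult sham replicate 1 and young burn replicate 2, lie low in mir-208b, and adult sham replicate 3 is highest in both.

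For Ank1, host of mir-486, the relation with the summed mir-486 level did not pass with all 12 mice (r = 0.233, permutation p = 0.505, rho = 0.58, permutation p = 0.052, adjusted 0.731 and 0.0867). Within groups r was 0.133 (exact permutation p = 0.64, adjusted 0.64), and without the 2 farthest mice, adult sham replicate 1 and adult burn replicate 3, r was 0.288. The pooled value rested on young burn replicate 2, whose Ank1 was 58.2 CPM against 171 to 524 CPM in the other 11 mice, and without it r was 0.722. Between ages Ank1 was at 0.53 ± 0.39 in sham and -0.29 ± 0.39 in burn mice (edgeR adjusted p = 0.481 and 0.668). Without young burn replicate 2 these were 0.52 and 0.13 (edgeR adjusted p = 0.0847 and 0.682). All young burn values, 269, 58.2 and 224 CPM, lay below the young sham values of 402, 524 and 419 CPM (-1.29 ± 0.40, edgeR adjusted p = 0.119). Without young burn replicate 2 the difference was smaller and did not pass (-0.85, edgeR adjusted p = 0.0807). It passed in 2 of 17 alternatives, with no filter and without young burn replicate 1 (-1.67, edgeR adjusted p = 0.0404), both of which keep young burn replicate 2.

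The host gene of mir-206 and mir-133b, Gm28653, was added after the annotation was read. It was at 1.94, 2.83 and 1.70 CPM in young sham and 2.89, 2.03 and 3.59 CPM in adult sham mice (-0.38 ± 0.59, edgeR adjusted p = 0.771), and at 0.73 ± 0.46 in young burn against adult burn mice (edgeR adjusted p = 0.313). Over 12 mice its r was 0.178 with mir-206 (permutation p = 0.585, adjusted 0.731, rho = 0.028, permutation p = 0.938, adjusted 0.938) and -0.071 with mir-133b (permutation p = 0.819, adjusted 0.819, rho = -0.035, permutation p = 0.917, adjusted 0.938). Without the 2 farthest mice these were -0.0993 and -0.225, and within groups 0.343 and 0.38 (exact permutation p = 0.566 and 0.294, adjusted 0.64 and 0.49). It had 7 to 57 counts a library. A second added host, Mir133a-1hg, was at 25.7 ± 3.87 CPM in young sham and 17.4 ± 3.97 CPM in adult sham mice (0.57 ± 0.34, edgeR adjusted p = 0.368), and it did not pass between the burn groups either (-0.43 ± 0.33, edgeR adjusted p = 0.423).

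Of the regulators of myomiR genes (Srf, 3 Mef2 genes, Mrtfa, Myod1, Myog, Myf5 and Myf6), 1 of 9 was higher and 2 were lower in young sham against adult sham mice, where 3.76% of all genes passed. Myogenin (Myog), the factor that drives myoblast differentiation, was at 12.6, 20.8 and 24.5 CPM in young sham and 5.98, 5.65 and 6.13 CPM in adult sham mice, without overlap (1.70 ± 0.31, edgeR adjusted p = 0.0111). Srf, which drives mir-1 and mir-133 genes and is itself listed as a mir-133 target, was lower (46.5 ± 4.96 against 74.9 ± 6.91 CPM, -0.69 ± 0.12, edgeR adjusted p = 0.0081). Myod1, the myoblast determination factor, was lower too (18.8 ± 5.35 against 39.2 ± 3.17 CPM, -1.05 ± 0.26, edgeR adjusted p = 0.0438). The Myod1 call passed in 8 of 17 alternatives, and was lost without any 1 of the 6 sham libraries (edgeR adjusted p = 0.0521 to 0.193), without adult burn replicate 3 or young burn replicate 3 (edgeR adjusted p = 0.0632 and 0.0561) and with a replicate block (edgeR adjusted p = 0.0616). Without adult sham replicate 2, Myog and Srf did not pass (edgeR adjusted p = 0.0597 and 0.051), nor did Myog without young sham replicate 3 (edgeR adjusted p = 0.0671).

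Of the 9 regulators in young burn against adult burn mice, 1 was higher and 1 lower, where 10.8% of all genes passed. Myog was at 44.1, 31.8 and 34.01 CPM in young burn and 8.36, 3.96 and 3.51 CPM in adult burn mice (2.78 ± 0.29, edgeR adjusted p = 0.000379). Srf was at -0.73 ± 0.12 (edgeR adjusted p = 0.00286). Without young burn replicate 2, where 11.8% and 20.7% of all genes passed in the sham and burn comparisons, Mef2d also passed as lower in both (-0.57 and -0.46, edgeR adjusted p = 0.0111 and 0.0331). In the burn mice Myf6 then passed as lower and Mrtfa, a coactivator of SRF, as higher (-0.77 and 1.09, edgeR adjusted p = 0.0184 and 0.0111).

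None of the 10 genes that process and load miRNAs (Drosha, Dgcr8, Xpo5, Dicer1, Tarbp2, Prkra and Ago1 to Ago4) passed the edgeR test in either age comparison, with 1 and 3 of them at an unadjusted p under 0.05 and 0 by DESeq2. Their median log2 fold changes were 0.01 and 0.05, against 0.01 and 0.02 for all genes.

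Reported targets were searched for the complement of the seed, as DNA on the sense strand, in the longest 3' UTR of each gene (GENCODE M21). The motif ACATTCC, read by miR-206 and miR-1, was in 8 of 11 genes of the mir-1 and mir-206 list and in 10.1% of the 3' UTRs of 21025 genes. The list's UTRs were longer, with a median of 2038 bases against 961. For mir-133 the motif GGACCAA was in 3 of 8 listed genes and 7.73% of all, and for mir-499 the motif AGTCTTA was in 3 of 5 and 9.46%. The UTRs of these lists were longer too, with medians of 1496 and 3953 bases. The lists hold genes already reported as targets, so these shares are no test of targeting. A match is a description of letters and not of binding.

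The 3 listed mir-1 and mir-206 targets that passed in an age comparison each held the motif, shown in capitals with flanking bases on GRCm38, at chr10:87930880-87930904 for Igf1, chr10:86346984-86347008 for Timp3 and chr10:56389163-56389187 for the first of 2 in Gja1, all on the plus strand.
Igf1: tacaagtaaACATTCCaacatcgtc
Timp3: gaaattgtgACATTCCaagttgact
Gja1: cgctaaaaaACATTCCagtgtttaa

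These 3 genes did not move as a group. Of 10 tested genes of the mir-1 and mir-206 list, 1 was higher and 1 lower in young sham against adult sham mice. Of all genes, 3.76% passed in that comparison. Igf1, the growth factor, was higher (162 ± 31.4 against 72.4 ± 5.68 CPM, 1.16 ± 0.20, edgeR adjusted p = 0.00984), and Timp3, an inhibitor of matrix proteases, was lower (27.5 ± 8.46 against 62.2 ± 9.93 CPM, -1.18 ± 0.20, edgeR adjusted p = 0.00799). Between the burn groups 2 genes of the list were higher and 0 lower, where 10.8% of all genes passed. Igf1 was at 0.75 ± 0.20 (edgeR adjusted p = 0.0321) and Gja1, the gap junction protein connexin 43, at 0.51 ± 0.13 (edgeR adjusted p = 0.0266). These calls were not stable. Igf1 was lost without each of adult burn replicates 1, 2 and 3 and young burn replicates 1 and 3 and with only the groups compared (edgeR adjusted p = 0.071 to 0.127). Gja1 was lost without each adult burn library, with no filter and with only the groups compared (edgeR adjusted p = 0.0622 to 0.0999). The sham call of Igf1 was lost without adult sham replicate 2 (1.10, edgeR adjusted p = 0.0592). In young burn against adult burn mice Timp3 passed as lower without young burn replicate 2 (-0.59, edgeR adjusted p = 0.0492), where 20.7% of all genes passed. The list's median was 0.27 in sham and 0.35 in burn mice, against 0.01 and 0.02 for all genes.

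Of the 8 mir-133 targets, Srf was lower in both age comparisons, where 3.76% and 10.8% of all genes passed. Ucp2, a mitochondrial carrier, was higher in young burn against adult burn mice (60.6 ± 6.34 against 36.8 ± 2.12 CPM, 0.72 ± 0.16, edgeR adjusted p = 0.0168). The Ucp2 call was lost without adult burn replicate 3 or young burn replicate 3 (edgeR adjusted p = 0.073 and 0.062). Srf lacked the GGACCAA letters in the UTR searched. Of the 5 mir-208b and mir-499 targets, 0 passed with all 12 libraries (2 and 3 at an unadjusted p under 0.05, DESeq2 0). Without young burn replicate 2, Purb, a repressor of slow myosin genes, was higher in both comparisons (0.45 and 0.43, edgeR adjusted p = 0.0291 and 0.0369), and Fnip1 was lower in the sham comparison (-0.48, edgeR adjusted p = 0.02). Without that library 11.8% and 20.7% of all genes passed in the sham and burn comparisons.

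Over all 47 tested host, regulator, processing and target genes, 6 passed in each age comparison, against 3.76% of all genes in sham and 10.8% in burn mice. In adult burn against adult sham mice 0 passed in edgeR, where 0.00806% of all genes did, with 5 at an unadjusted p under 0.05 and 0 by DESeq2. In young burn against young sham mice 0 passed in edgeR, where 0.0645% of all genes did, with 12 at an unadjusted p under 0.05. There DESeq2 called 3, namely Mef2d, Myog and Sox6. Without young burn replicate 2 edgeR again called 0 in both, with 13 and 9 at an unadjusted p under 0.05, where 0.909% and 0.664% of all genes passed.

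Fibre type genes were read beside mir-208b and mir-499. In young burn against adult burn mice the fast heavy chains Myh1 and Myh2 were higher with all 12 libraries (0.95 ± 0.21 and 1.17 ± 0.33, edgeR adjusted p = 0.0135 and 0.0397), where 10.8% of all genes passed. Of the 3 listed fast heavy chains Myh4 was by far the most abundant, and it did not pass. It was at 24813, 18423 and 22564 CPM in young burn and 22606, 33245 and 30043 CPM in adult burn mice. In this comparison 0 of 6 slow-fibre genes passed (2 at an unadjusted p under 0.05, DESeq2 0). Of those 6, 3 passed as higher without young burn replicate 2, where 20.7% of all genes passed. With all 12 libraries 0 of 6 slow-fibre genes and 0 of 3 fast-fibre genes passed in edgeR in adult burn against adult sham mice, with 4 and 2 at an unadjusted p under 0.05, while DESeq2 called 0 and 2. Without young burn replicate 2, which is in neither group, the slow-fibre light chains Myl2 and Myl3 (-0.95 and -1.04, edgeR adjusted p = 0.046 and 0.0257) and the fast heavy chains Myh1 and Myh2 (-1.14 and -1.54, edgeR adjusted p = 0.00177 and 0.00325) were lower, where 0.909% of all genes passed. Myh4 did not pass, and it was at 27212, 28205 and 26808 CPM in adult sham mice. In the same comparison mir-499 and mir-208b were at -0.58 ± 0.36 and -0.49 ± 0.46 and did not pass (edgeR adjusted p = 0.712 and 0.72).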

How the data were processed

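Tables of raw read counts deposited by the authors, 1 column a library, were used as given. Per the study's methods and the submitters' processing notes, miRNA reads were trimmed with miRDeep2, mapped with STAR (2.7.5c) to GRCm38 and counted with featureCounts (2.0.1), and mRNA reads were counted by STAR on a Gencode annotation. The sources used here do not say how reads with several matches were handled. Groups came from the sample labels.

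Counts were fitted with edgeR 4.0.16 in R 4.3.3 (quasi-likelihood test, two-sided, TMM, filterByExpr at min.count 10 and min.total.count 15, 1 mean per group over all 12 libraries, no covariate), with Benjamini-Hochberg adjustment over 299 miRNA entries or 12408 genes and calls at an adjusted p under 0.05. Correlations between entries used log2 CPM with a prior count of 2, and those with host genes used 100000 permutations (SciPy 1.17.1). Scripts were tested on simulated data. Alternatives were library-size, RLE and non-member scaling, DESeq2 1.42.0, no filter, summed copies, only the groups compared, a replicate block, and each library left out. All members were named, with the 2 most correlated names for each, all hosts, and those listed genes that passed. Members and lists were chosen with earlier results of these data known. The list of mir-486 targets is not reported here on its own. Depth was 1704531 to 3149396 miRNA counts, where 3 counts equal 0.953 to 1.76 CPM.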

Additional observations from a re-analysis of the deposited data

How the results depend on the processing

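In young sham against adult sham mice, library-size scaling turned the 2 mir-133a copies to log2 fold changes of 0.0303 and 0.0279, a sign change of a called value. In young burn against adult burn mice the count of called myomiR entries was 8, and 3 with library size, 3 with scaling by counts outside the members, and 4 to 8 when 1 library was left out (4 without adult burn replicate 3, 5 without young burn replicate 1). The host, regulator, processing and target genes called, 6, 6, 0 and 0 in young sham against adult sham, young burn against adult burn, adult burn against adult sham and young burn against young sham mice, were 10, 10, 4 and 7 with no filter. In the last comparison they were 4 with library size and 3 with DESeq2. With 1 library left out they ranged from 2 to 9, from 2 to 11, from 0 to 0 and from 0 to 2. The lowest values came without adult sham replicate 2 (2) and young sham replicate 3 (3) in the first, and without adult burn replicate 3 (2) and young burn replicate 3 (3) in the second, and the highest without young burn replicate 2 (9 and 11). In the fourth, 2 genes passed without young burn replicate 1.

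Same-numbered mice did not deviate together (r from -0.277 to 0.261 over 18 pairs for miRNA and from -0.197 to 0.153 for mRNA), so the number was not taken as a pairing. With the replicate block, 8 and 8 myomiR entries passed in the 2 age comparisons and 0 in each burn comparison, and 5, 6, 0 and 0 listed genes passed. Across all alternatives run, 1137 single miRNA values kept their side of the threshold, 30 lost the call, 11 gained it and 2 called values changed sign. Over miRNA and mRNA values, 69 that passed in neither setting also changed sign, and these are counted among those that kept their side. The mir-206 call passed in 20 of 20 alternatives in both age comparisons. Causes of these changes were not tested. Counts were low for mir-208b, Myh7b and Gm28653, which limits their precision.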
